A study of Mus musculus with 21 samples.

Results

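The regions described here are stretches of open chromatin of the mouse colon that were listed as peaks in MRISC and in CD34 SP cells and that met no peak of the CD138 or Myofibroblast cells. They were chosen by overlap of 4 deposited peak lists. A peak of the MRISC list on chromosomes 1 to 19 or X was kept when it shared at least 1 bp with a CD34 SP peak and none with a CD138 or Myofibroblast peak. This held for 20641 of 177038 MRISC peaks (11.7%), here called members, which covered 6.44 Mb. Seen from the other list, 20487 of 143393 CD34 SP peaks (14.3%) met a member.

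The 4 populations were colon stromal cells of male C57BL/6 mice aged 12 weeks, sorted on gp38 after gating out CD45, Epcam and CD31, and each was sequenced in 2 ATAC-seq libraries. MRISC are the Map3k2-regulated intestinal stromal cells named in the title of the study, CD34 SP cells are known by that label alone, CD138 are CD34-negative CD138-positive cells, and Myofibroblast are the cells of that name. The sources used here do not name the antibodies that separate MRISC from CD34 SP cells. Each population came as 1 list of peaks for its 2 libraries, so library-to-library error is not known, the read depth is unknown, and no difference between classes of peaks below carries a test over samples. RNA levels came from 1 single-cell library of gp38+CD90+ colon cells, female, wild type and aged 12 weeks, taken at D3 of 2% DSS (dextran sulfate sodium, which damages the gut lining). It differed from the ATAC-seq libraries in sex and treatment, and 12 libraries of whole colon RNA, from Map3k2-/- and wild-type animals, were not analysed here.

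ATAC-seq marks open chromatin with a transposase that inserts adapters where DNA is not wrapped in nucleosomes, so promoters and enhancers in use stand out as peaks. Colon stromal cells that carry gp38 (podoplanin) include fibroblasts around the crypt base, which supply R-spondins, BMP antagonists and Wnt ligands to the epithelial stem cells, and fibroblasts nearer the lumen, which supply BMP ligands. CD34 marks fibroblasts of the deeper mucosa and submucosa. AP-1 is a dimer of Fos, Jun and related proteins that binds the palindrome TGANTCA and often opens enhancers together with factors of the cell type.

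The central 200 bases of 11 members are shown because they hold the word that the results on sequence turn on, or, in 1 strong member, lack it. The first 5 are among the 20 members that ranked highest in both lists. The other 6 lie within 10 kb of genes described below, and each has the highest lower percentile of both lists among members with an AP-1 word there whose central bases touch no annotated untranslated part of a transcript. The Klf4 member shares that percentile, 74.0, with a neighbour that also holds the word. All are the plus strand of GRCm38 (mm10), 5′ to 3′, from RefSeq's assembly, and capitals mark the AP-1 word TGANTCA.
Hhipl1 intron, chr12:108310579-108310778: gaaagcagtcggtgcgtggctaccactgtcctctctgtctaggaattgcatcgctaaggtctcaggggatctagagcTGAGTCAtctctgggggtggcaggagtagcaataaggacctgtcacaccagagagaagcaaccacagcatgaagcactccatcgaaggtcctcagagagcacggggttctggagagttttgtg
Serping1 intron, chr2:84772500-84772699: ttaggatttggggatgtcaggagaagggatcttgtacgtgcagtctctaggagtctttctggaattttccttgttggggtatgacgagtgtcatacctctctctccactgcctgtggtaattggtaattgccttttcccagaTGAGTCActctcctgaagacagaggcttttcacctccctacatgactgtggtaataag
Ror1 intron, chr4:100386722-100386921: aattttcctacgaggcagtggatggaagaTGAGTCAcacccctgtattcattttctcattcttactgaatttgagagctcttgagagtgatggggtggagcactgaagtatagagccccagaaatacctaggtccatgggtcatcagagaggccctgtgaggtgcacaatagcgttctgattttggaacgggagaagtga
intergenic, nearest start Lmx1a, chr1:168016593-168016792: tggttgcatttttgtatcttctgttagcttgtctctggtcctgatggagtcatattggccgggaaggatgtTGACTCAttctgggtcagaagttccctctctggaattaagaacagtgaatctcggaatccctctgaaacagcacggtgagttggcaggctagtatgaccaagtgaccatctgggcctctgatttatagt
intergenic, nearest start Ackr3, chr1:90234814-90235013: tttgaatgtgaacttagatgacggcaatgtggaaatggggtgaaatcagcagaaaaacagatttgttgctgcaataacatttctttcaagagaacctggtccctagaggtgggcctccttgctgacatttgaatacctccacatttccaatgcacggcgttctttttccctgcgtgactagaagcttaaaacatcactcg
Cd34 intron, chr1:194941642-194941841: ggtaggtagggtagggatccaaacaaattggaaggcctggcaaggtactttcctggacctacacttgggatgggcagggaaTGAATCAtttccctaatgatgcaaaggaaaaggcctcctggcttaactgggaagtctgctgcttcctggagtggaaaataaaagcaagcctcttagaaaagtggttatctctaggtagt
upstream of Klf4, chr4:55541274-55541473: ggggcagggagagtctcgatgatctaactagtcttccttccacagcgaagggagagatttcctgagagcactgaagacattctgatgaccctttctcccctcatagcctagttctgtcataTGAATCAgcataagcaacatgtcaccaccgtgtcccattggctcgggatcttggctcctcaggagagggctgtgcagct
Thbs1 intron, chr2:118114482-118114681: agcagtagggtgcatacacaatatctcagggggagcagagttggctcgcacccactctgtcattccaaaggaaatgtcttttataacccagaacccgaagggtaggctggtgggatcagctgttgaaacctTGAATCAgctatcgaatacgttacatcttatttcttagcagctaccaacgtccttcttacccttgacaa
Tnfaip6 intron, chr2:52054341-52054540: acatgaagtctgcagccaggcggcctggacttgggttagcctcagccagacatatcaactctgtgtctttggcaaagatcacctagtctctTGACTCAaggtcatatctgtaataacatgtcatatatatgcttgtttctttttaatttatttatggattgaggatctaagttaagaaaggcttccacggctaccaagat
Has1 exon, chr17:17843851-17844050: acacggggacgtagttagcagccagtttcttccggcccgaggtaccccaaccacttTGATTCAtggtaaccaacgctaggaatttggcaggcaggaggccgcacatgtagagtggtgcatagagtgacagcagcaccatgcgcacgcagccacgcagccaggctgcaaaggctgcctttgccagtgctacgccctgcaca
Zeb2 intron, chr2:45019520-45019719: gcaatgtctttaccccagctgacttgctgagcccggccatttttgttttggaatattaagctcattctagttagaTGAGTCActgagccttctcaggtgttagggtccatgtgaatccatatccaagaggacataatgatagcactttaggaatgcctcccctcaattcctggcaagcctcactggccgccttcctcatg

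In 10 of these 11 windows the word occurs once, and it is absent from the window nearest the start of Ackr3, the gene of an atypical chemokine receptor that takes up CXCL12. The middle base was C or G in the Hhipl1, Serping1, Ror1, Lmx1a, Tnfaip6 and Zeb2 windows, the form that Fos-Jun dimers bind best. It was A or T in the Cd34, Klf4, Thbs1 and Has1 windows. The Cd34 window, at chr1:194941642-194941841, is in an intron 2.92 kb downstream of the start of the gene whose product names the sort, and its peak of 388 bp stood at percentile 80.4 of MRISC scores and percentile 77.2 of CD34 SP scores. The nearest peak of CD138 or Myofibroblast cells was 2464 bp away. Around Cd34 as a whole there were 13 MRISC and 10 CD34 SP peaks, against 8 CD138 and 6 Myofibroblast peaks, so the gene held peaks in all 4 lists.

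Absence of a peak in CD138 and Myofibroblast cells is a threshold, and many members lay close to it. The nearest CD138 or Myofibroblast peak was within 500 bp of 8045 members and within 100 bp of 1869, while it was over 5000 bp away for 1684. Of the CD34 SP peaks that met a member, 3437 (16.8%) also met a CD138 or Myofibroblast peak outside the member, which concerned 3601 members (17.4%). Just inside the rule stood 265 members that shared under 10 bp with CD34 SP peaks, with a median width of 155 bp and a median MRISC score at percentile 29.9 of the list. Just outside stood 220 MRISC peaks that met CD34 SP but were left out for under 10 bp of CD138 or Myofibroblast peak (median width 200 bp, percentile 42.9). A further 2555 peaks of MRISC alone lay within 100 bp of a CD34 SP peak (156 bp, percentile 31.8). In most members the overlap was wide, since the median member had 83.3% of its length within CD34 SP peaks and 7098 lay in them whole.

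The members were peaks of middle strength. Their median width was 269 bp (quartiles 176 and 398 bp), and their scores had a median at percentile 57.2 of the MRISC list and, for the CD34 SP partner, at percentile 54.0 of that list. Peaks of MRISC alone had a median of 141 bp and percentile 28.9, peaks shared with CD34 SP and CD138 one of 390 bp and percentile 71.4, and peaks shared by all 4 populations one of 769 bp and percentile 88.6. These values follow from the rule and are given as a description. The rank correlation of the 2 scores over members was 0.20, so a member high in one list was often not high in the other. Members made up 6.30% of the lowest decile of MRISC scores, 23.4% of the seventh decile and 1.02% of the highest decile, where 91.8% of peaks were shared by all 4 populations.

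**Figure D1:**
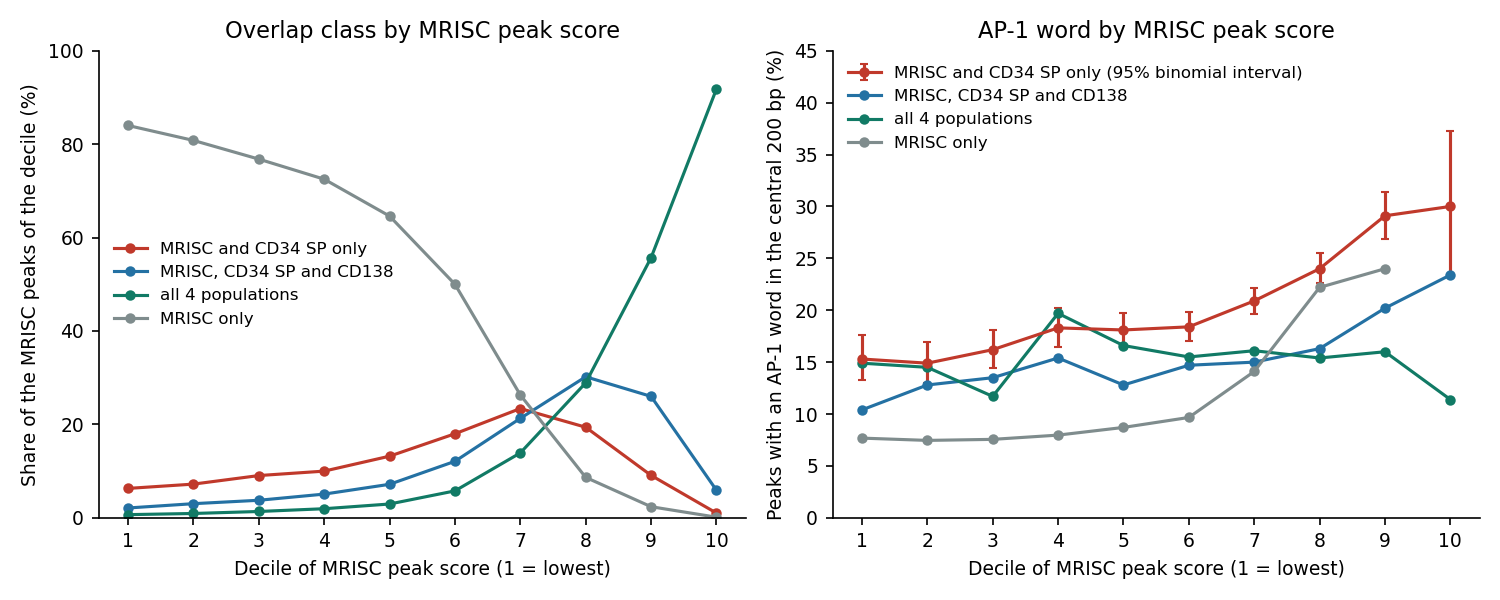
The left panel plots, for each decile of MRISC peaks by score (1 is the lowest), the share in 4 overlap classes, and the right panel the share of each class with an AP-1 word in the central 200 bp (bars on the members are 95% binomial intervals, for counting error only). Members peak at 23.4% in the seventh decile, and in each decile their AP-1 share is above that of the peaks of MRISC alone where at least 100 of these were present.

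Most members lay outside promoters. Promoters, taken as 1 kb on either side of a protein-coding transcription start, held 1910 members (9.25%, exact 95% binomial interval 8.86 to 9.66% for counting error only), against 3.91% of peaks of MRISC alone, 7.68% of peaks shared with CD34 SP and CD138, 34.6% of peaks shared by all 4 populations and 11.7% of all MRISC peaks. Introns held 47.6% of members, exons 5.97% and the space between genes 37.2%. Members had a median distance of 17190 bp to the closest start, against 29473 bp for MRISC alone, 23948 bp for those shared with CD34 SP and CD138 and 7266 bp for those shared by all 4. The promoter share was 4.87% when members within 500 bp of a CD138 or Myofibroblast peak were left out. Median GC content was 48.5% for members and 49.0% for all MRISC peaks.

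The AP-1 word TGANTCA was more frequent in the centre of members than in that of the other classes compared. It stood in the central 200 bp of 4163 members (20.2%, interval 19.6 to 20.7%), against 16.6% of peaks shared with CD34 SP and CD138, 13.8% of peaks shared by all 4 populations, 11.2% of peaks shared with CD138 alone, 8.74% of peaks of MRISC alone and 12.6% of all MRISC peaks. In the CD34 SP list, 14.7% of peaks shared with CD138 alone held it. When the other MRISC peaks were weighted to the GC content of members, 12.1% held it, a ratio of 1.67. The form with C or G in the middle was in 16.0% of members, against 12.9% of peaks shared with CD34 SP and CD138 and 6.05% of MRISC alone. The form with A or T was in 5.02% of members, 4.25% of peaks shared with CD34 SP and CD138 and 2.89% of MRISC alone. At least 2 words were present in 419 members (2.03%), against 1.60% of peaks shared by all 4 populations and 0.526% of MRISC alone. Over whole peaks the order differed, with the word in 24.4% of members and 25.8% of the wider peaks shared with CD34 SP and CD138. Outside promoters it was in 21.2% of members, 17.2% of peaks shared with CD34 SP and CD138 and 8.84% of MRISC alone. Peaks shared by all 4 populations were not split in this way. No share was taken for peaks shared with CD34 SP and Myofibroblast, or with CD138 and Myofibroblast.

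The difference was also present between peaks of like score. In each of the 10 deciles of MRISC scores the AP-1 share of members was above that of all other MRISC peaks pooled. In the first decile it was 15.3% of members and 8.05% of the others, and in the ninth 29.1% and 18.2%. In the seventh decile, with 4134 members, it was 20.9% of members, against 16.1% of peaks shared by all 4 and 14.1% of MRISC alone. Against single classes the gap could be small or turn. In the eighth decile it was 24.0% of members (interval 22.6 to 25.5%) and 22.2% of the 1534 peaks of MRISC alone, and in the fourth 18.3% of members (16.5 to 20.2%) and 19.7% of the 346 peaks shared by all 4. Among members, the share was 15.7% in the weakest quintile by score and 26.2% in the strongest. It was 10.2% in promoter members, 13.9% in exons, 21.4% in introns and 22.1% between genes. Members with the word lay farther from starts, with a median distance of 25462 bp against 15606 bp for members without it.

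**Figure D2:**
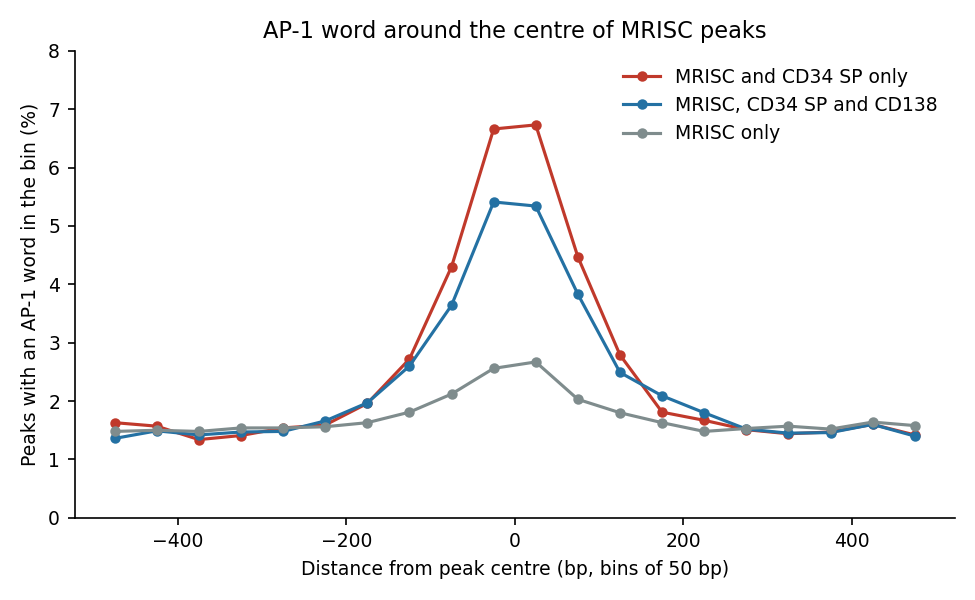
The share of peaks with an AP-1 word is plotted in bins of 50 bp by distance from the peak centre, for members, for peaks shared with CD34 SP and CD138, and for peaks of MRISC alone. In members the share is 6.66 and 6.73% in the 2 central bins and about the same as in the other classes beyond 300 bp.

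The word was most frequent at the centre of the members. In bins of 50 bp it was in 6.66 and 6.73% of members on either side of the centre, against 5.41 and 5.34% of peaks shared with CD34 SP and CD138 and 2.56 and 2.67% of peaks of MRISC alone. At 475 bp from the centre it was in 1.63 and 1.42% of members, 1.36 and 1.40% of peaks shared with CD34 SP and CD138 and 1.48 and 1.58% of MRISC alone, so the classes differed little in the flanks.

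Of the other 30 words searched on both strands, the KLF word GGGTGTGG had the next highest ratio to GC-weighted peaks, 1.55, with 3.86% of members against 2.67% of all MRISC peaks. KLF factors are zinc-finger proteins that bind GC-rich boxes. The TEAD word GGAATG, bound by the partners of YAP and TAZ, was in 15.3% of members and 13.0% of all MRISC peaks, and the NF-kB word GGGANNTTCC in 1.27% and 1.03%. The C/EBP word TTGCNNAA was in 2177 members, at 1.19 times the share of GC-weighted peaks, and in 12.7% of peaks shared with CD34 SP and CD138. The CTCF word CCANNAGNNGGC, of the insulator protein, was in 4.10% of members, against 9.38% of peaks shared with CD34 SP and CD138 and 4.12% of all MRISC peaks. The EBF word TCCCNNGGGA was in 0.698% of members and 0.770% of all MRISC peaks, a ratio of 0.914. The ETS word CCGGAAGT, common in promoters, was in 0.281% of members and 0.548% of all MRISC peaks. A heat shock factor word, GAANNTTCNNGAA, added after the gene counts were seen, was in 0.460% of members and 0.391% of all MRISC peaks. The E-box CAGCTG was in 17.7% of members, 20.9% of peaks shared with CD34 SP and CD138, 17.6% of those shared by all 4 populations and 11.6% of peaks of MRISC alone. The ratios of the other words lay between 0.802 and 1.36. They were CRE TGACGTCA, MEIS TGACAG, PBX-HOX TGATTGAT, posterior HOX TTTATGG, RUNX TGTGGTT, NFI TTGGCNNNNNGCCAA, FOX TGTTTAC and SP/KLF GGGCGGG. The SOX word was ACAAAG, the word of GATA factors AGATAA and that of TCF/LEF ATCAAAG. The E-boxes of this kind were CAGATG, which many tissue-specific helix-loop-helix factors bind, and the form CACCTG, which ZEB and SNAI repressors bind. Further words were glucocorticoid GNACANNNTGTNC, NRF2 TGACNNNGCA, IRF GAAANNGAAA, STAT TTCCNGGAA, GLI GACCACCCA, HIF ACGTG, the SRF CArG box and the MEF2 word. Words of related families share letters, as NRF2 does with AP-1 and KLF with RUNX, and a match is no measured binding.

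Chromosome X held the highest share of members. They were 530 of its 2406 MRISC peaks (22.0%), against 9.75 to 12.8% on the 19 autosomes. There the share of peaks of MRISC alone was low, 27.3% against 46.9% on autosomes, and the shares in common with CD34 SP and CD138 (17.2 against 11.6%) and with all 4 populations (26.4 against 20.3%) were high too. X held 1.36% of the peaks of the MRISC list, 1.90% of the CD34 SP list, 1.49% of the CD138 list and 1.02% of the Myofibroblast list. MRISC peaks on X were wider than on autosomes, with a median of 325 against 226 bp. Their median score stood at percentile 66.1 of the MRISC list. Over the whole list, the seventh decile of scores had 23.4% members and 26.3% peaks of MRISC alone, near the shares on X. The part of score in the share on X was not tested. Members on X were in promoters in 15.7% of cases and held the AP-1 word in 22.8%, against 9.08% and 20.1% of autosomal members. All 4 populations came from male mice. Sh3kbp1, the gene of an adaptor in receptor uptake, named after its count was seen, had the most members on X, with 13 of 27 MRISC peaks.

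Next, members were given to genes. A gene window was the body of a protein-coding gene with 10 kb on both sides, and windows of neighbours overlap, so a member can count for several genes. At least 1 member was in the windows of 8744 of 21755 genes (40.2%), and 5 or more in those of 920 genes (4.23%). The 920 windows were long, with a median of 119 kb against 37.4 kb for all genes, so the count of members and their share of MRISC peaks are both given below. Within these windows, 80.2% of members and 84.7% of all MRISC peaks lay inside the gene body, 7.39% and 6.47% upstream, and 12.4% and 8.78% downstream.

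By count, 1 gene model known only by a number held 161 members among 1039 MRISC peaks (15.5%), and such models are not named here. Among the other genes, Fgfr2 came first with 53 members, but its annotated model is very long and its window of 2980.9 kb held 410 MRISC peaks, so the share, 12.9%, was near the 11.7% of the whole list. Fndc3b had 40 of 143 (28.0%), Rora, of a nuclear receptor, 32 of 167 (19.2%), and Zeb2, of a repressor that drives mesenchymal identity, 29 of 71 (40.8%). Col5a1, of a fibrillar collagen that starts fibril assembly, had 27 of 105, Ext1, which builds heparan sulfate chains, 26 of 96, and Gas7 26 of 90. Jak1, the kinase of many cytokine receptors, had 23 of 67 (34.3%), Plpp3, which degrades lysophosphatidic acid, 21 of 53 (39.6%), and Slit3, of a guidance cue, 21 of 150. The 29 Zeb2 members lay almost all inside the gene, 27 of them, and their MRISC scores spanned percentiles 0.942 to 89.1.

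The highest shares, among genes with at least 8 members, were at other genes. Thbs1, of thrombospondin 1, a matricellular protein that activates TGF-beta, had 17 members among 20 MRISC peaks (85.0%). Tnfaip6, whose secreted product crosslinks hyaluronan, had 15 of 22 (68.2%), and Has1, a hyaluronan synthase, 12 of 22 (54.5%). Ifrd1, a stress-induced co-regulator, had 16 of 24 (66.7%), Calr, of the chaperone calreticulin, 9 of 14 (64.3%), and Dnaja1, of a cochaperone of HSP70, 11 of 18 (61.1%). Mafk, of a small Maf factor that pairs with NRF2, had 9 of 16 (56.2%), and Sqstm1, of the autophagy receptor p62, 15 of 28 (53.6%). Windows of neighbours overlap at Calr and Gadd45gip1, at Dnaja1 and Smu1, at Thbs1 and Fsip1, at Ifrd1 and Lsmem1, and at Mafk and Tmem184a. The Sqstm1 window also took in parts of neighbouring genes.

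**Figure D3:**
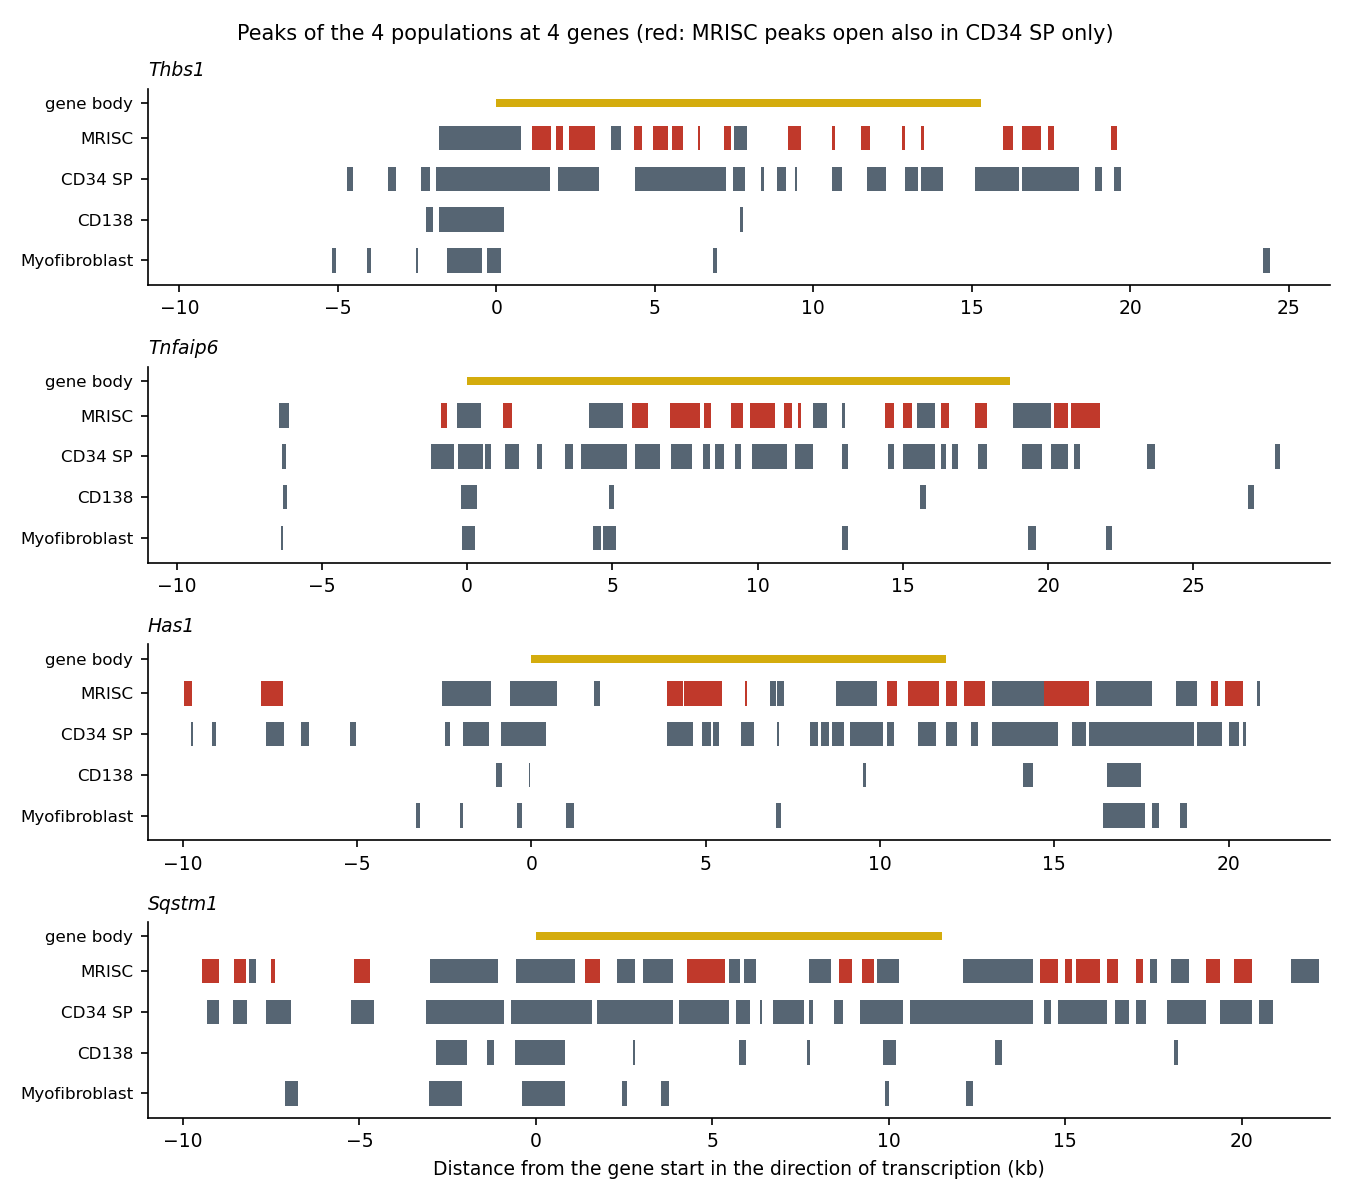
Each bar is a peak of MRISC, CD34 SP, CD138 or Myofibroblast cells by distance from the gene start in kb along transcription, from 10 kb before to 10 kb after the gene body (yellow), with members in red. At Thbs1, 17 of 20 MRISC peaks are members, and the CD138 and Myofibroblast lists hold 3 and 7 peaks there.

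At Thbs1 the window held 20 MRISC and 18 CD34 SP peaks, against 3 CD138 and 7 Myofibroblast peaks. The promoter was open in all 4 populations and held no member. The first member was centred 1.43 kb after the start and the last 19.5 kb after it, with 13 inside the gene and 4 beyond its end. The widest, of 827 bp in an intron 2.71 kb from the start, stood at percentile 76.3 of MRISC scores and percentile 66.1 of CD34 SP scores, and the weakest at percentile 6.90 of MRISC. At Tnfaip6 there were 22 MRISC and 28 CD34 SP peaks, against 5 CD138 and 7 Myofibroblast peaks. Of its 15 members, 12 were inside the gene, 2 beyond its end and 1 in the promoter, and the strongest in MRISC, at percentile 82.2, was 20.5 kb from the start.

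At Has1 there were 22 MRISC and 27 CD34 SP peaks, against 5 CD138 and 8 Myofibroblast peaks, with 2 members upstream, 5 inside and 5 downstream. The strongest of these, at percentile 89.2 of MRISC scores, was 7.44 kb before the start. Most of the downstream members lay in exons or introns of a neighbouring gene. At Sqstm1 there were 28 MRISC and 22 CD34 SP peaks, against 9 CD138 and 7 Myofibroblast peaks, with 4 members upstream, 4 inside and 7 downstream. The upstream and downstream members at Sqstm1 all lay in introns of neighbouring genes. The AP-1 word was in 5 of the 17 members at Thbs1, 1 of 15 at Tnfaip6, 2 of 12 at Has1 and 2 of 15 at Sqstm1. These shares lie on both sides of the 20.2% of all members.

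Members also lay in runs. With gaps joined up to the default stitching distance of ROSE, a program that finds super-enhancers, the 20641 members fell into 13600 runs, 9912 members (48.0%) stood alone, and 391 runs of at least 5 held 2869 members (13.9%). Runs of other classes of peaks were not counted, so whether members lie in runs more often than other peaks was not tested. The richest run held 25 members among 48 MRISC peaks over 68.6 kb with Sqstm1, Mgat4b, Mrnip and Ltc4s. A run of 23 covered 97.1 kb at Fndc3b, another of 23 covered 63.1 kb at Hsph1 and Wdr95, and one of 22 covered 57.8 kb at Maff and Tmem184b. Runs of 20 members lay at Plpp3 and at Erf with its neighbours. Runs of 19 lay at Ext1, at Egr1 with Etf1 and at Lmna with Sema4a. A run of 18 lay at Hspa8, and runs of 17 at Jak1, at Hsp90aa1 and at Napa. Egr1 encodes an immediate early factor, and Hsph1, Hspa8 and Hsp90aa1 encode chaperones. Hspa8, Hsp90aa1, Lmna and Sema4a were named after their counts were seen. The densest of the 15 runs with most members was that of Thbs1, with 17 members among 19 MRISC peaks in 18.4 kb.

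Lists of genes by role were then read against the 11.7% of MRISC peaks that were members in the whole list. Neighbouring members can meet the same CD34 SP peak, and the intervals below count each peak as separate. In a list of stromal sort marker genes, Pdpn, the gene of gp38 itself, had 11 members of 24 MRISC peaks (45.8%), and Cd34 had 2 of 13. Cd81, which the sources used here do not give as a marker of this sort, had 2 of 19. Sdc1, the gene of CD138, had 1 of 11. Of the genes of markers gated out, Pecam1 (CD31) had 4 of 33 and Ptprc (CD45) 1 of 4. The 8 genes of the list together had 21 of 108 (19.4%), of which 11 were those of Pdpn.

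Among secreted signals for the epithelium, the 4 R-spondins, which amplify Wnt signalling at stem cells, had 9 members of 33 MRISC peaks (27.3%, interval 13.3 to 45.5%). Rspo3 had 4 of 14, Rspo2 2 of 8 and Rspo4 2 of 4. The 10 Wnt ligands had 25 of 143 (17.5%), led by Wnt5a with 7 of 14 and Wnt2b with 5 of 16, and the 10 Wnt antagonists 18 of 86 (20.9%), with Sfrp4 at 5 of 11. The 13 BMP antagonists had 22 of 139 (15.8%), among them Fstl1 with 8 of 36 and Grem1 with 3 of 14, and the 8 BMP and GDF ligands 18 of 93 (19.4%), of which Bmp6 had 10. The 9 EGF family ligands had 8 of 99 (8.08%), and Nrg1, an ERBB ligand, 2 of 32. The intervals of the Wnt ligands (11.6 to 24.7%), the BMP antagonists (10.2 to 23.0%) and the EGF list (3.55 to 15.3%) include 11.7%, and that of the BMP and GDF ligands begins at 11.9%. The 15 chemokines had 29 of 99 peaks (29.3%, interval 20.6 to 39.3%). The eosinophil chemokine Ccl11 had 7 of 16, Cxcl5 4 of 7, Cxcl12 4 of 12 and Cxcl9 3 of 8. The 19 PDGF, FGF, IGF and HGF genes had 95 of 713 (13.3%), of which 53 were those of Fgfr2.

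Among matrix genes, the 20 collagens had 133 of 629 (21.1%), and Col14a1 had 13 of 50. The 19 matricellular and elastic fibre genes had 110 of 470 (23.4%), among them Fbn1, of the microfibril protein fibrillin 1, with 20 of 87, and the fibulin gene Fbln1 with 9 of 35. The 14 proteoglycan and hyaluronan genes had 46 of 185 (24.9%), and the 14 proteases and inhibitors 69 of 292 (23.6%), in which Timp3, an inhibitor of metalloproteinases, had 17 of 34. Timp3 lies within the body of Syn3, so its members also count for that gene. The 24 genes of Cd34-positive adventitial fibroblasts had 76 of 376 (20.2%), with Has1, Col15a1 (13 of 48), Gfpt2 (9 of 30) and Clec3b (6 of 11) ahead. Genes of lamina propria fibroblasts had 23 of 120 (19.2%), those of crypt-top fibroblasts 16 of 172 (9.30%) and smooth muscle contractile genes 16 of 163 (9.82%).

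Among transcription factors, the 9 AP-1 subunits had 34 members of 112 MRISC peaks (30.4%, interval 22.0 to 39.8%). Most of these were at 4 genes, as Fosl2 had 10 of 30, Atf3 10 of 25, Jund 6 of 10 and Fosb 4 of 13. Fos had 1 of 7 and Fosl1 1 of 9, and the median subunit gene had 1 member. At Jund, 5 of the members lay downstream of the gene, in introns or exons of a neighbour. The Jund window held 4 CD34 SP peaks for its 6 members, so some members met the same CD34 SP peak. The 7 KLF factors had 34 of 127 (26.8%), with Klf13 at 8 of 36, Klf6 at 6 of 18 and Klf4 at 5 of 11. The RUNX, NFI and TEAD factors had 89 of 433 (20.6%), and Nfia and Nfib 19 each. The 4 EBF factors had 15 of 156 (9.62%), 8 of them at Ebf2 and 4 at Ebf1, whose 94 MRISC peaks were in 65 cases open in MRISC alone. The 10 genes of the MAP3K2-ERK5 route had 33 of 154 (21.4%), of which 15 were those of the Sqstm1 window, with 4 inside that gene. Klf4, also on the KLF list, had 5 of 11, Klf2 3 of 12, Mef2d 3 of 27, Map3k3 2 of 17 and Mapk7 2 of 8. The Map3k2 promoter itself held 1 member among 2 MRISC peaks. The mesenchymal lineage factors had 69 of 320 (21.6%), 29 of them at Zeb2. The remaining lists lay nearer the background, with complement genes at 17.1%, inflammatory fibroblast genes at 16.7%, TGF-beta genes at 16.4%, MEIS and PBX factors at 14.8%, forkhead and Hedgehog genes at 13.7% and guidance cue genes at 13.0%.

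Lists of other cell types were under the background, with few peaks each and intervals that all include 11.7%. Endothelial genes had 8 of 118 (6.78%), epithelial genes 3 of 45 (6.67%), glial genes 1 of 19 (5.26%), mesothelial genes 3 of 35 (8.57%) and immune genes 6 of 60 (10.0%). A list of 34 heat shock and immediate early genes, put together after the runs had been seen, had 146 of 429 (34%, interval 29.6 to 38.7%). It held 12 at Hsph1, 11 at Dnaja1, 10 at Atf3, which is also on the AP-1 list, and 9 at Mafk. The list was chosen with the runs in view, so its high share is no separate finding. Genes of this kind are also induced when tissue is dissociated, and the part of dissociation in these peaks was not tested.

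**Figure D4:**
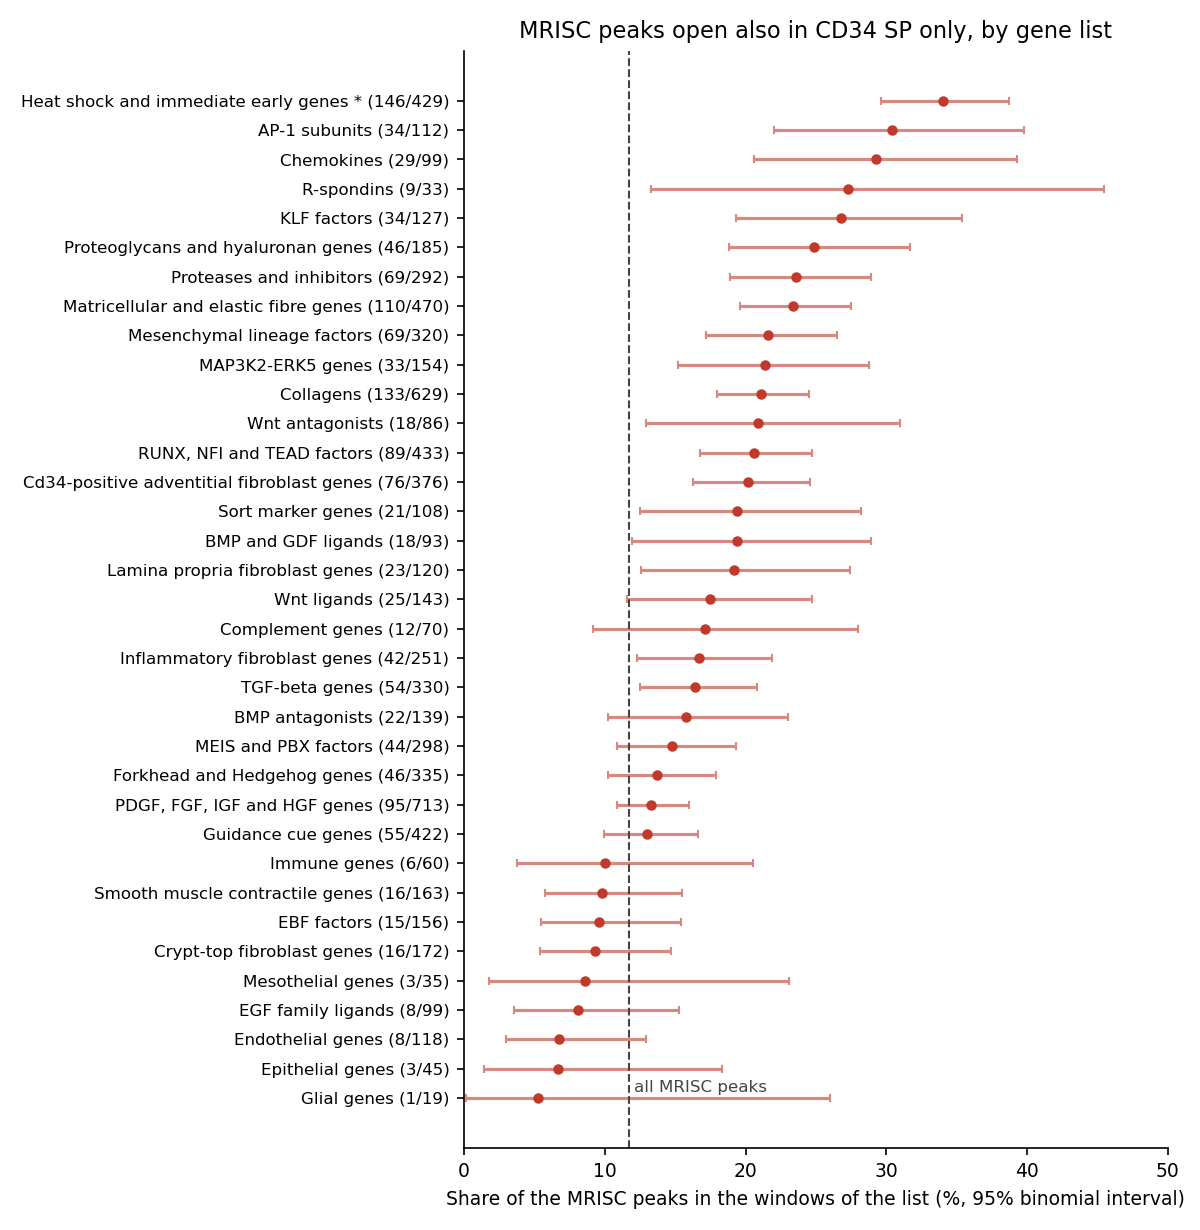
For each gene list the dot is the share of MRISC peaks in its gene windows that are members, with the counts in the label and the exact 95% binomial interval (counting error only; the asterisk marks the list added after values were seen). The dashed line is the 11.7% of all MRISC peaks, and chemokines, AP-1 subunits and heat shock genes lie highest while glial, epithelial and endothelial genes lie lowest.

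Promoters of 1832 genes (8.46% of those with a coding start) held a member. Of the genes on the lists, the following named after their counts were seen, Wnt5a had 2 members among 3 promoter peaks, Postn 2 of 3 and Nr2f2 3 of 6. The single promoter peak of Sfrp2, Dkk2, Gdf6, Ly6a, Fmod, Mmp3, Mmp14 and Egr1 was a member. At Wnt5a, the pair of promoter members lay 6.00 and 6.60 kb after the first start, at an internal start of the gene. At Postn, 1 lay 0.717 kb before the first start and the other 16.7 kb after it, at an internal start.

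The 20 strongest members, ranked by the lower of their 2 score percentiles, were at or above percentile 89.8 in both lists. The first lay at chr12:108310354-108311003 in an intron of Hhipl1, 4409 bp from its start, with percentiles of 92.1 in MRISC and 98.9 in CD34 SP. The next was at chr1:168016203-168017182, 327136 bp from the nearest start, that of Lmx1a, and the third at chr2:84772262-84772938 in an intron of Serping1, the gene of the C1 inhibitor that restrains complement. That at chr4:100386465-100387178 is in an intron of Ror1, a receptor for WNT5A, and had the highest MRISC percentile of the 20, 95.9. For others the nearest start was that of Socs1, a brake on cytokine signalling, 3307 bp away, or of Ackr3, 30908 bp away. It was that of Foxf1, a factor of gut mesenchyme, at 110979 bp, and of Eln, of elastin, at 38642 bp. Further nearest starts were those of Vps13d, Opa1, Spata18, Apopt1, Cnot6, Eml4 and Igsf23, among others. Nearest CD138 or Myofibroblast peaks were 130 to 6242 bp away.

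RNA levels were then set beside the members. The single-cell library held 11484 barcodes, of which 11376 were kept, with a median of 6052 UMIs, and no doublets were removed. Cells were clustered without the genes named for members or holding 5 or more, 1220 genes in all. Of 12 clusters, 3 were fibroblast clusters with Cd34 above the pooled level of 476 CPM (UMIs of a gene per 1e6 UMIs of the group), and 3 were fibroblast clusters below it. The other 6 clusters, with 1555 cells, were left out of both groups. Among them was a smooth muscle or myofibroblast-like cluster of 1111 cells with 91.8 CPM of Cd34. The Cd34-low cells therefore do not stand for the Myofibroblast cells of the peak lists. The Cd34-high cells (5864 cells, 34728552 UMIs) took in a Cd34-positive Cd81-positive fibroblast-like cluster and 2 unnamed ones led by Cxcl13 and by Hapln1. The first took its name from Cd81, C3, Ackr4, Grem1 and Pi16. Its Cd34 was 640 CPM, against 697 CPM in the Cxcl13-led and 650 CPM in the Hapln1-led cluster. The Cd34-low cells (3957 cells, 27003255 UMIs) took in a lamina propria fibroblast-like, a crypt-top fibroblast-like and an unnamed cluster led by Cemip and Mmp10. Pooled Cd34 was 666 CPM in Cd34-high and 233 CPM in Cd34-low cells, and 521 CPM in an immune-like cluster that should lack it, and the part of free RNA in these UMIs was not tested. No cluster was taken to be MRISC, and with 1 library no test was made.

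Genes with 5 or more members leaned slightly to Cd34-high cells. Among 6022 genes at 20 CPM or more in either group, 26 of 579 genes with 5 or more members (4.49%) were at least 2-fold higher in Cd34-high cells, against 1.68% of all genes, and 11 (1.90%) were at least 2-fold lower, against 2.44% of all. With 0, 1 and 2 to 4 members, 0.684, 0.959 and 2.86% were 2-fold higher. The median log2 ratio of Cd34-high to Cd34-low cells was 0.04 for genes with 5 or more members and -0.06 for all genes, so the median gene with many members was nearly equal in both. Genes with 5 or more peaks of MRISC alone had a median of -0.04, with 2.91% 2-fold higher, and those with 5 or more peaks shared with CD34 SP and CD138 had -0.02 and 3.50%. The 39 genes with 5 or more peaks shared with CD138 alone had a higher median, 0.11, and 3 of them (7.69%) were 2-fold higher. The lean rested in part on 1 cluster. Without the Cd34-positive Cd81-positive fibroblast-like cluster, an alternative chosen after seeing the data, 13 genes with 5 or more members (2.27%) were 2-fold higher and 17 (2.97%) lower, against 0.964% and 2.98% of all genes.

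**Figure D5:**
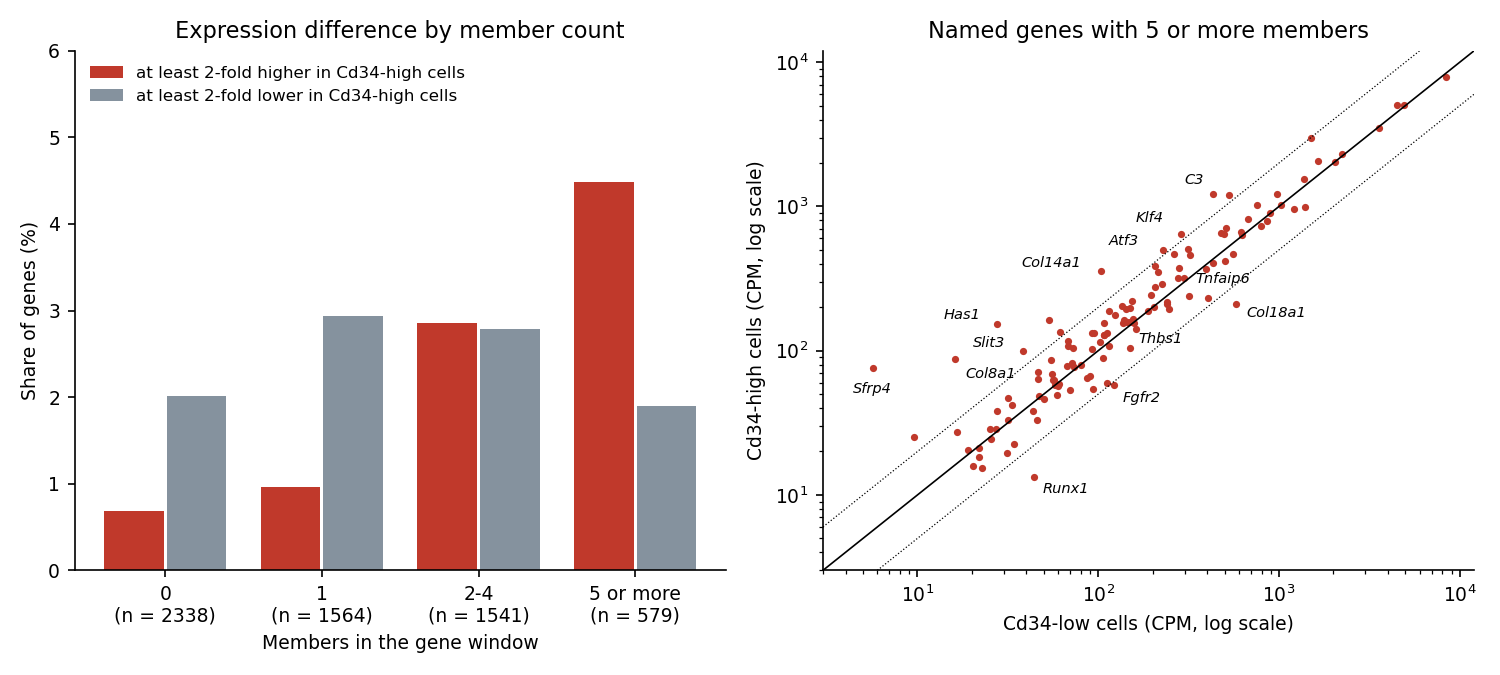
The left panel gives the share of genes at least 2-fold higher (red) or lower (grey) in Cd34-high than in Cd34-low fibroblasts, by the number of members in the gene window, and the right panel pooled CPM of the named genes with 5 or more members in both groups on log scales (solid line, equal; dotted, 2-fold). The share that was 2-fold higher is 4.49% at 5 or more members and 0.684% at 0 (2.27 and 0.470% without the Cd34-positive Cd81-positive fibroblast-like cluster), and most named genes lie between the dotted lines.

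Has1 had 154 CPM in Cd34-high cells (exact Poisson interval 150 to 158, counting error only, as below) and 27.7 CPM in Cd34-low cells (25.8 to 29.8). Its UMIs came mostly from the Cd34-positive Cd81-positive fibroblast-like cluster, at 584 CPM, against 25.7 CPM in the Cxcl13-led cluster. Sfrp4, of a secreted Wnt antagonist, had 76.0 CPM in Cd34-high and 5.70 CPM in Cd34-low cells, with 304 CPM in that cluster. Atf3, of an AP-1 family factor induced by stress, had 502 and 228 CPM, with 1653 CPM in the same cluster. Without the cluster these 3 log2 ratios were -0.53, -0.29 and -0.68, so their direction turned.

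Other genes kept their direction without it. Col14a1 had 358 CPM in Cd34-high and 103 CPM in Cd34-low cells (log2 ratio 1.80, and 1.34 without the cluster). Col8a1 had 87.8 and 16.1 CPM (2.44 and 2.11), Gas7 134 and 61.4 CPM (1.12 and 1.18), Klf4 641 and 288 CPM (1.15 and 0.93), and Eln 1196 and 528 CPM (1.18 and 1.38). Emilin2, of an elastic fibre glycoprotein, with 10 members, had 58.5 and 15.8 CPM (1.89 and 1.54). Col8a1 and Emilin2 were singled out after their values were seen.

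Many members did not go with a higher level. Thbs1, with the highest member share, had 158 CPM in Cd34-high cells (154 to 162) and 150 CPM in Cd34-low cells (146 to 155). This near equality depended on the Cd34-positive Cd81-positive fibroblast-like cluster, at 438 CPM, without which the log2 ratio was -1.10. Sqstm1 had 217 and 241 CPM, Fndc3b 128 and 107 CPM, and Pdpn 318 and 299 CPM. Zeb2, with 29 members, had 420 CPM in Cd34-high and 504 CPM in Cd34-low cells. Tnfaip6 had 467 and 264 CPM (log2 ratio 0.82), with 1291 CPM in the same cluster and a ratio of -0.33 without it. On the low side, of which Runx1 and Col18a1 were singled out after their values were seen, Runx1 had 13.4 CPM in Cd34-high and 44.2 CPM in Cd34-low cells, Col18a1 209 and 576 CPM, and Fgfr2 57.4 and 122 CPM.

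Ebf1 had few members and a large difference. It had 130 CPM in Cd34-high cells and 5.37 CPM in Cd34-low cells, with 529 CPM in the Cd34-positive Cd81-positive fibroblast-like cluster and a log2 ratio of 0.01 without that cluster, and 4 of its 94 MRISC peaks were members (4.26%). The 34 heat shock and immediate early genes had a median log2 ratio of -0.001 over the 30 that passed 20 CPM, with 2 genes 2-fold higher and 0 lower. Other lists with high member shares went both ways. Over the genes that passed, chemokines had a median of -0.46, with 1 gene 2-fold higher and 4 lower. The median was -0.44 for R-spondins, of which 2 passed, and -0.05 for proteases and inhibitors. It was 0.36 for KLF factors, 0.17 for AP-1 subunits, 0.09 for proteoglycan and hyaluronan genes and 0.07 for matricellular and elastic fibre genes. The 24 genes of Cd34-positive adventitial fibroblasts had a median of 1.24 over the 20 that passed, with 12 of them 2-fold higher. That list was made of genes known for Cd34-positive cells, so its direction is no finding about members.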

How the data were processed

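ATAC-seq peaks of 4 sorted colon stromal populations and 1 single-cell RNA library were used. Each peak list was deposited by the authors as positions on mm10 with 1 score per peak, for 2 libraries together. bcl2fastq and bedtools are named per the submitters' processing notes, while the sources used here name neither the peak caller nor what the score means. The score is the authors' own value, and only its rank within a list was used. Positions were read as 0-based BED intervals and are given 1-based. Peaks on chromosomes 1 to 19 and X were kept, 177038 of 177133 for MRISC. The single-cell UMI counts were deposited as a filtered matrix, with software version 3.0.0 per the file headers, and Cell Ranger, Seurat and bcl2fastq are named per the submitters' processing notes.

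Overlaps, words on both strands of the central 200 bp and gene windows of 10 kb around bodies were computed in Python 3.11.15 with pysam 0.24.0, and the overlap code was checked against bedtools 2.31.1 on simulated data. Sequences are RefSeq's GRCm38. Other peaks were weighted to the GC content of members in bins of 5%. Barcodes under 500 genes or over 10% mitochondrial UMIs were dropped. The rest were clustered with scanpy 1.11.5 (2000 variable genes, 30 components, 15 neighbours) and leidenalg 0.10.2 at resolution 0.5, without the genes named for members or with 5 or more of them. No doublet caller was run. A cluster took a name from at least 3 markers of a fixed list. UMIs were pooled per group of clusters, and genes at 20 CPM or more in either group were compared by their ratio, with 2-fold as the limit for a call.

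Named genes were the 20 with most members, the 20 with the highest share among those with at least 8, the nearest starts of the 20 strongest members, the genes of the 15 longest runs, and up to 4 genes per list, and others are said to be named after their values were seen. Gene models known only by a Gm or Rik number were counted but not named. The members and the lists were chosen with earlier results of these data known. The heat shock and immediate early list and the HSF word were added after values had been seen. Intervals are exact 95% binomial (Clopper-Pearson) or exact Poisson ones and cover counting error only. The binomial ones count neighbouring peaks as independent, though members can meet the same CD34 SP peak. No test was made, since each population has 1 pooled list and the RNA 1 library. Alternatives were other overlap rules, distances, score limits, list lengths, windows, levels and groupings of cells.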

Additional observations from a re-analysis of the deposited data

How the results depend on the processing

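The member count, 20641, was 12596 without members within 500 bp of a CD138 or Myofibroblast peak, 9550 with 50% overlap of both peaks and 11735 with peaks above the median score of each list. In the same order the promoter share, 9.25%, was 4.87, 7.26 and 9.83%, and 16.5% for promoters of 2 kb. The AP-1 share, 20.2%, was 22.3, 24.6 and 23.7%, and 27.5% over 400 bp, 24.4% over whole peaks and 21.2% outside promoters. The EBF share, 0.698%, was 0.534% with 50% overlap, 1.29% over 400 bp and 1.12% over whole peaks. Genes with 5 or more members, 920, numbered 382, 238 and 357 under those 3 rules, and 2760 with 50 kb on both sides. Their median log2 expression ratio, 0.04, was 0.12 with 50% overlap and -0.001 with 50 kb on both sides, against -0.06 for all genes, and the cause was not tested. Lists cut to the same number of best-scored peaks gave 21391 members, 9.11% in promoters and 20.7% with the AP-1 word.

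No paired analysis was possible because each population has 1 pooled list, and for the same reason no library was left out. Absence from a list depends on its threshold and on the depth, which is unknown. Wider windows hold more words and more peaks by construction. The RNA ratios rest on 1 library of 1 sex and treatment, and the leaning of genes with many members rests in part on 1 cluster.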
